A study of Mus musculus with 67 samples.

Results

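Saa3, Lcn2, Steap4, Lrg1, Serpina3n, S100a8, S100a9 and Chil3 are 8 mouse genes for acute-phase proteins and for secreted or cytosolic proteins that neutrophils hold in large amounts. They were taken by symbol from the 3 gene tables of the series, and all 8 of 8 were found in each table. The table of the LPS experiment lists 24421 genes, of which 11444 passed the filter on low counts, and 6 of the 8 genes were among them (S100a8 and Chil3 were not). The genes were followed through RNA sequencing libraries made from the brains of LPS-treated mice to show in which preparation their transcripts lay.

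All mice were C57BL/6J and carried a haemagglutinin-tagged ribosomal protein, which Cre recombinase switches on, and a Cre under the control of Cx3cr1, a fractalkine receptor gene of microglia and other macrophages. In the LPS experiment and in the digest experiment the genotype is given as CX3CR1CreER/WT RLP22HA/HA, and these mice had received tamoxifen by gavage, 4 doses of 5 mg. LPS, a bacterial cell wall lipid that triggers innate immunity, was injected into the peritoneum at 2.5 mg/kg and brains were taken 3 h later, with PBS as the control injection. There were 4 preparations of each treatment, with 3 PBS and 4 LPS libraries each. The first was an anti-HA pull-down from whole brain homogenate, which collects ribosome-bound transcripts of the tagged cells. The second was the same pull-down with an IgG1 antibody, which collects what sticks without the tag. The third was cells sorted as GR1 negative, CD45 intermediate and CD11b positive, and the fourth was an anti-HA pull-down from such sorted cells. GR1 is a surface antigen of neutrophils, so the gate was set to leave them out. The sorting protocol describes an enzyme digest of 20 min and a variant without it, and the labels of the LPS libraries do not say which was used. The digest experiment held pull-down (n = 3), IgG (n = 4) and cells sorted after the digest (n = 4) or without it (n = 4) from mice with no LPS. The driver experiment held input homogenate, pull-down and IgG, with no LPS, from CX3CR1CreER/WT RLP22HA/HA mice with tamoxifen (n = 3 each) or without it (n = 2 each) and from CX3CR1Cre/WT RLP22HA/HA mice without tamoxifen (n = 3 each). Sorting and pull-down used the same animals, but the labels do not say which libraries share one. The Cx3cr1 driver does not separate microglia from the macrophages of the brain's borders.

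The acute-phase response is the rise of a set of proteins during infection, driven in the liver by interleukin 6 and interleukin 1 through the transcription factors STAT3, C/EBP and NF-kappaB. Serum amyloid A3, unlike the forms secreted by the liver into plasma, is made largely outside it, by macrophages and other cells of inflamed tissue. Lipocalin 2 keeps iron from bacteria by binding their siderophores, and in the brain of LPS-treated animals it is known from endothelial cells and astrocytes. S100a8 and S100a9 encode the subunits of calprotectin, the most abundant cytosolic protein of neutrophils.

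The start-site regions of 4 genes are shown because the comparison of preparations after LPS turns on these genes. They are RefSeq promoters of build GRCm38.p6, from 250 bases before to 50 bases after the gene's start, in the direction of transcription, whereas the counts were made on build mm9. Saa3 lies at chr7:46715627-46715926 on the minus strand, Lcn2 at chr2:32387690-32387989 on the minus strand, Steap4 at chr5:7960222-7960521 on the plus strand and Lrg1 at chr17:56121897-56122196 on the minus strand. Capitals mark matches, on either strand, to 3 short motifs: GGGANNNNCC for NF-kappaB (kappaB), TTGCNNAA for C/EBP and TTCNNNGAA for STAT.
Saa3: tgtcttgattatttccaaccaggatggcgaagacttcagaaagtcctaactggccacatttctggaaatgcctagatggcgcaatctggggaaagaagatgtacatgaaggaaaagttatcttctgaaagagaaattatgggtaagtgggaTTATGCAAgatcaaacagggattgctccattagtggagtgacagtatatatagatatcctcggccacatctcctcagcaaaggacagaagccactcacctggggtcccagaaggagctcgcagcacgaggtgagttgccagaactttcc
Lcn2: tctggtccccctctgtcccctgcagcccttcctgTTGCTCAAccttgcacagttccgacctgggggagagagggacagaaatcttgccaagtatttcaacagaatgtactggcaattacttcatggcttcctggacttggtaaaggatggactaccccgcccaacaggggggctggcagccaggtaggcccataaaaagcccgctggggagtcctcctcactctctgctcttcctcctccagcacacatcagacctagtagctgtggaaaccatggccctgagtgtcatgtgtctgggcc
Steap4: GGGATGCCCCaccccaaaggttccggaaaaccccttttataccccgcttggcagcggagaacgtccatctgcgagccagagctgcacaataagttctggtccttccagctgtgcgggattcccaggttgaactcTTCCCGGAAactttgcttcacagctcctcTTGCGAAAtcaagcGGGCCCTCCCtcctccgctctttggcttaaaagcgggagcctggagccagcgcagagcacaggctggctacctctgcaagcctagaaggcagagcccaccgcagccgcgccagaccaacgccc
Lrg1: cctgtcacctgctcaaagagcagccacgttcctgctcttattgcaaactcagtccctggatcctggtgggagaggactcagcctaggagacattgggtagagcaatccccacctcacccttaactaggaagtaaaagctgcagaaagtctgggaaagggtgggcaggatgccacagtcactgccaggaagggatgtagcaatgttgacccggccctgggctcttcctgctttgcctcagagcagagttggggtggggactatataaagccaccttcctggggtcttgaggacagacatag
Saa3 held 1 C/EBP match, on the minus strand with its first base at position -99 from the start, and Lcn2 held 1, at position -216. Steap4 was the only one of the 8 genes with all 3 motifs, with 2 kappaB matches, 1 C/EBP match and 1 STAT match. The window of Lrg1 held none of these letters, nor did that of S100a8. Among 32851 promoters of this length in the table, 20.7% hold the kappaB letters, 10.8% the C/EBP letters and 8.3% the STAT letters, and 3, 4 and 2 of the 8 genes did. None of the matches overlapped another. A match describes the letters and does not show that a factor binds.

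Libraries of the LPS experiment held between 166851 and 3513317 counted reads, with the pull-down from sorted cells the shallowest. Of 20 microglial marker genes, the summed level was 52962 to 70678 CPM (reads scaled to a common library total) in pull-downs from brain and in sorted cells, against 1388 to 2950 CPM in IgG. Sorted cells and brain pull-downs differed in other cell types. Markers of border macrophages (10 genes) summed to 646 to 817 CPM in the pull-down of LPS mice and to 3.88 to 9.93 CPM in their sorted cells, where Cd163, Lyve1 and Cd209f had no read. Neuronal markers (11 genes) summed to 3986 to 4983 CPM in the pull-down and 9702 to 13051 CPM in IgG of LPS mice, so neuronal transcripts were present in both. In these bulk libraries, fewer cells of a type and less RNA per cell cannot be told apart. The part of the sorting gate, which took GR1 negative, CD45 intermediate and CD11b positive cells, was not tested.

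Saa3, a serum amyloid A with chemoattractant activity, rose after LPS in all 4 preparations, and its level was highest in the brain pull-down. The 4 LPS pull-downs stood at 1989, 2166, 2390 and 2791 CPM, and the 3 PBS pull-downs at 5.22, 9.43 and 12.9 CPM. In IgG the LPS libraries stood at 61.3, 69.8, 79.7 and 136 CPM and the PBS libraries at 4.63, 5.22 and 6.04 CPM. Treated and control libraries did not overlap in either preparation, and the lowest LPS pull-down was above every IgG library. Sorted cells of LPS mice held 40.8, 215, 220 and 293 CPM, and those of PBS mice 1.38, 1.39 and 7.29 CPM. The pull-down from sorted cells gave 208, 452, 460 and 511 CPM after LPS and 3.35, 5.83 and 25.7 CPM after PBS. All LPS libraries were above all PBS libraries here too, with replicate 1 the lowest LPS library in both. On the log2 scale, the difference between LPS and PBS was 7.99 ± 0.57 (SE) in the pull-down, with an edgeR adjusted p of 2.35e-10. It was 3.95 ± 0.65 in IgG (adjusted p = 0.00124), 5.61 ± 0.71 in sorted cells (adjusted p = 1.56e-06) and 5.47 ± 0.70 in the pull-down from sorted cells (adjusted p = 2.76e-06), all by edgeR.

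Lcn2, which encodes the siderophore-binding lipocalin, rose after LPS in the brain pull-down, in IgG and in sorted cells. The pull-down held 111, 129, 190 and 194 CPM after LPS and 0.653, 1.45 and 3.04 CPM after PBS. IgG held 63.9, 85.2, 93.5 and 114 CPM after LPS and 2.68, 7.31 and 13.1 CPM after PBS, so that LPS levels of IgG came close to those of the pull-down and overlapped them. Sorted cells held only 2, 14, 17 and 18 reads after LPS, or 3.88 to 23.2 CPM, and 0, 2 and 3 reads after PBS, and 1 LPS library fell within the PBS range. The pull-down from sorted cells held 16.6, 40.9, 46.0 and 61.1 CPM after LPS and 19.4, 21.8 and 25.7 CPM after PBS, and these groups overlapped. The log2 difference was 6.46 ± 0.45 in the pull-down (edgeR adjusted p = 4.77e-14), 3.54 ± 0.37 in IgG (edgeR adjusted p = 5.8e-08) and 3.05 ± 0.73 in sorted cells (edgeR adjusted p = 0.00105). In the pull-down from sorted cells it was 0.71 ± 0.50 and did not pass the test (edgeR adjusted p = 0.33).

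Steap4, a metalloreductase that reduces iron and copper at membranes, was almost without reads in sorted cells at any treatment. The LPS pull-downs held 107, 111, 91 and 48 reads (35.0 to 68.5 CPM) against 0, 1 and 1 read after PBS. IgG of LPS mice held 13, 24, 9 and 12 reads (8.81 to 19.1 CPM) against 1, 1 and 0 after PBS. In sorted cells there were 0, 0, 1 and 1 read after LPS and none in the 3 PBS libraries, and the pull-down from sorted cells held 2 reads in all after each treatment. LPS and PBS libraries did not overlap in the pull-down or in IgG. Because the PBS groups held 2 reads each, the change is given as a ratio of summed reads per depth with its 95% interval for counting error: 106 (29.2 to 882) in the pull-down and 22.7 (6.02 to 192) in IgG. Both differences passed the edgeR test, with adjusted p of 5.78e-17 and 1.35e-05. The gene passed the filter on low counts through the LPS libraries of these preparations. No fold is given for sorted cells, where both groups lay at or under the floor of 3 reads.

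Lrg1, a secreted glycoprotein that modifies TGF-beta signalling in endothelial cells, rose in the pull-down, in sorted cells and in the pull-down from sorted cells. The LPS pull-downs stood at 40.8, 51.1, 64.1 and 77.7 CPM and the PBS pull-downs at 2.18, 2.61 and 9.11 CPM. Sorted cells held 14, 19, 35 and 38 reads after LPS, or 27.2 to 44.9 CPM, against 2, 0 and 0 reads after PBS. The pull-down from sorted cells held 66.5, 73.4, 103 and 174 CPM after LPS and 3.35, 5.83 and 7.35 CPM after PBS. No LPS library overlapped a PBS library in these 3 preparations. In IgG the LPS libraries lay close together at 19.1 to 22.3 CPM, whereas PBS libraries stood at 4.70, 6.27 and 21.6 CPM, and the third of them lay within the LPS range. The log2 difference was 3.67 ± 0.39 in the pull-down (edgeR adjusted p = 4.42e-10) and 4.47 ± 0.52 in the pull-down from sorted cells (edgeR adjusted p = 5.61e-09). In sorted cells the ratio was 46.1 (95% interval 12.5 to 386, counting error only), with an edgeR adjusted p of 7.36e-08. In IgG the log2 difference was 0.92 ± 0.39 with an adjusted p of 0.341, and without PBS IgG replicate 3 it was 1.94 with an adjusted p of 0.0113 by edgeR.

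Serpina3n, a protease inhibitor known as a marker of reactive astrocytes, rose in the pull-down. The LPS pull-downs stood at 6.87, 12.3, 15.5 and 22.5 CPM, and the PBS pull-downs at 5.08, 5.22 and 6.83 CPM. IgG libraries stood at 11.9, 16.2, 24.2 and 28.5 CPM after LPS and 8.05, 9.26 and 9.40 CPM after PBS. The LPS libraries were above the PBS libraries in both, in the pull-down by a small margin. Sorted cells held 1 read in each LPS library and none in any PBS library, which allows up to 1.18 CPM over the 3 PBS libraries. The log2 difference was 1.17 ± 0.38 in the pull-down (edgeR adjusted p = 0.0152) and 1.14 ± 0.35 in IgG (edgeR adjusted p = 0.0976). Without LPS pull-down replicate 4, or without PBS pull-down replicate 1 or 2, the first was 0.93, 1.10 and 1.11 with edgeR adjusted p of 0.0723, 0.0633 and 0.0641, and the call was lost.

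The calprotectin genes stayed at a few reads. S100a9 held 4 to 12 reads per LPS pull-down and 4 to 7 per PBS pull-down, 3.68 ± 0.83 CPM (SD, n = 4) against 4.09 ± 1.37 CPM (SD, n = 3). Its log2 difference after LPS was -0.14 ± 0.54 in the pull-down, -0.08 ± 0.58 in IgG, -1.47 ± 0.75 in sorted cells and 0.02 ± 0.49 in the pull-down from sorted cells, and none passed the edgeR test (adjusted p = 0.894, 0.977, 0.124 and 0.989). S100a8 held 5 reads over the 4 LPS pull-downs and 10 over the 3 PBS pull-downs, and 4 reads in sorted cells of either treatment. Chil3, a chitinase-like lectin of neutrophils and alternatively activated macrophages, held 0 to 6 reads per LPS pull-down and 0 or 1 per PBS pull-down, a ratio of 4.17 with an interval of 0.959 to 37.8. In sorted cells, 11 of the 15 Chil3 reads after LPS lay in replicate 2. The granule genes of neutrophils Ngp, Camp and Ltf held at most 8, 3 and 3 reads in any library of this experiment, and Elane had none.

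**Figure D1:**
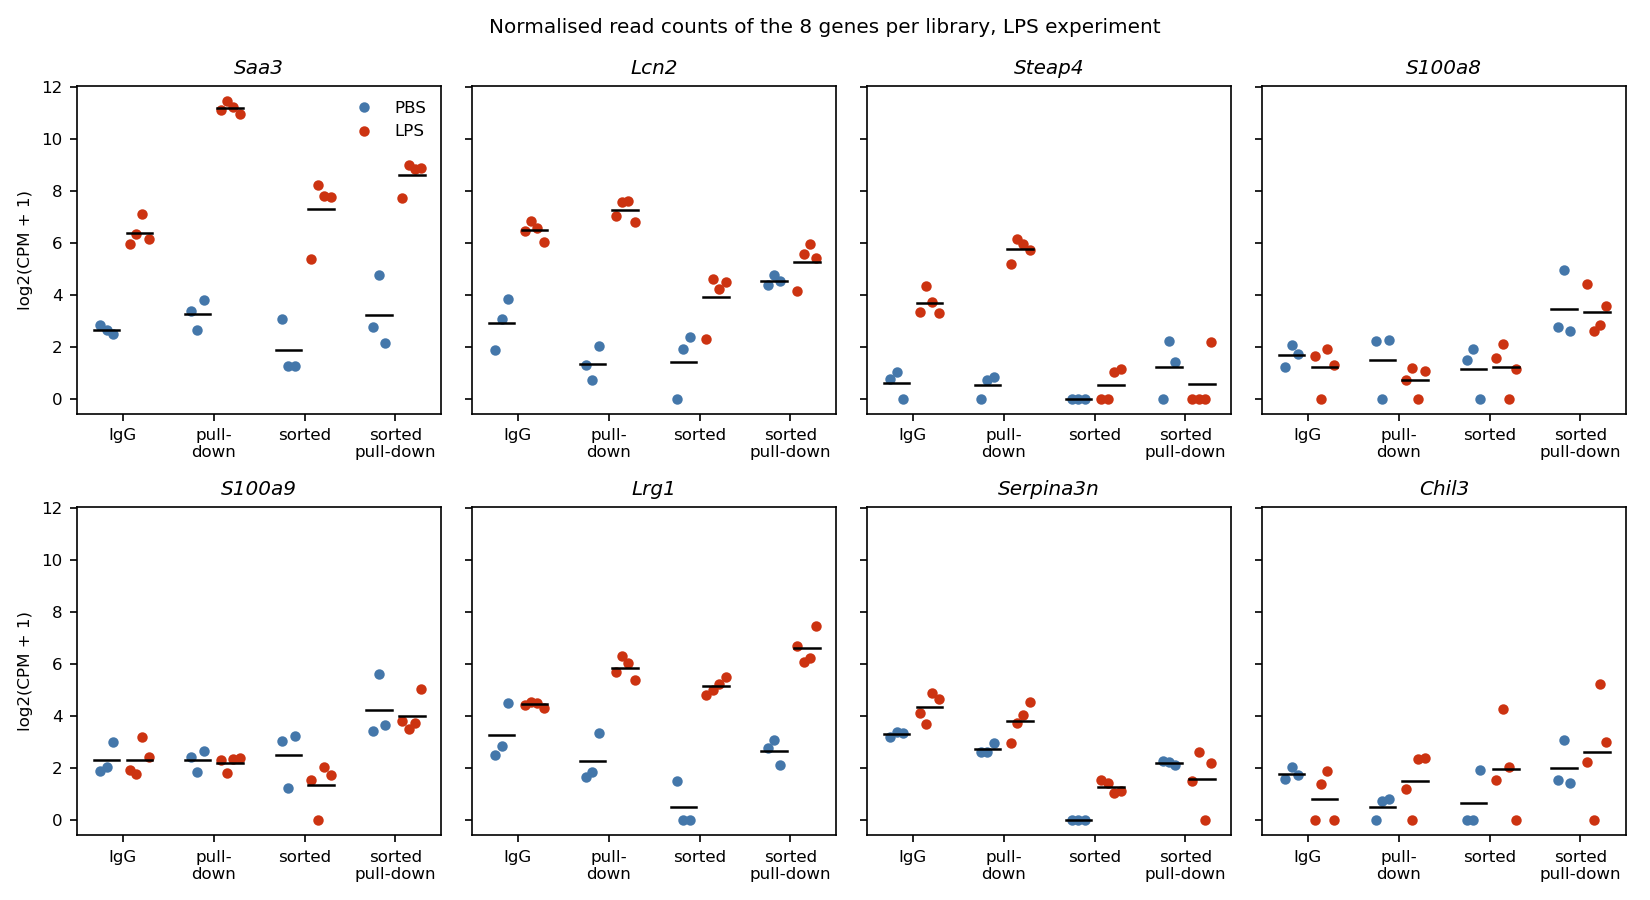
Level of each of the 8 genes, as log2(CPM + 1), in every library of the LPS experiment, by preparation, with PBS in blue, LPS in red and group means of the plotted values as black bars. Saa3 reached 1989 to 2791 CPM in the LPS pull-down, Steap4 was near 0 in sorted cells, and S100a8, S100a9 and Chil3 did not separate by treatment in any preparation.

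Of the 8 genes, 5 rose after LPS in the pull-down, where 15.5% of the genes tested were called higher, and 3 rose in IgG, where 1.00% were. In sorted cells 3 rose (17.0% of genes tested), and 2 did in the pull-down from sorted cells (12.7%). The median log2 difference of the 6 tested genes was 5.06 in the pull-down, 2.34 in IgG, 3.32 in sorted cells and 0.37 in the pull-down from sorted cells, beside -0.03, -0.02, -0.01 and -0.07 over all genes tested. In sorted cells it was 3.05 with Serpina3n at its bound and Steap4, which had no more than 3 reads in either group, left out; in the pull-down from sorted cells it was 0.71 without Steap4. Among called genes in the pull-down, the share that was higher was 58.6%, and 45.0% and 40.6% with DESeq2 size factors and total counts in place of TMM scaling. The median of all genes moved by -0.11 and -0.15 with it. The 5 calls held under both scalings. The 8 genes were chosen with earlier results of these data known, so these counts and medians describe the list and are no test of it. Steap4, among those that rose in the pull-down and in IgG, passed the filter through the LPS libraries of these preparations.

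The LPS effect was larger in the pull-down than in IgG for 3 genes, where 5.60% of genes tested were called. The difference between the effects was 4.05 ± 1.15 on the log2 scale for Saa3 (edgeR adjusted p = 0.0316), 2.92 ± 0.78 for Lcn2 (edgeR adjusted p = 0.0131) and 2.75 ± 0.60 for Lrg1 (edgeR adjusted p = 0.00177). For Saa3, Lcn2 and Lrg1 the call was lost without PBS IgG replicate 3, at 4.15, 2.21 and 1.73 with edgeR adjusted p of 0.0786, 0.142 and 0.109. Saa3 also lost its call without PBS IgG replicate 1 or 2 (3.91 and 4.07), and Saa3 and Lcn2 lost theirs without PBS pull-down replicate 2 (3.73 and 2.49). For Serpina3n the effects differed by 0.03 ± 0.46. Among all called genes of this comparison 65.3% were higher, and 45.7% and 47.6% with DESeq2 size factors and total counts. Between sorted cells and pull-down the LPS effect passed the test for 0 of the 6 genes with edgeR (3.21% of genes tested called), with 1 at an unadjusted p under 0.05, and for 1 with DESeq2. That gene was Lcn2 in both, at -3.41 ± 1.36 with an adjusted p of 0.193 by edgeR and -3.42 with an adjusted p of 0.0183 by DESeq2, and it was also called with a replicate block by the number in the titles (-3.48). Between sorted cells and IgG the effect of Lrg1 was larger by 4.39 ± 0.94 in sorted cells (edgeR adjusted p = 0.000691; 8.62% of genes tested were called higher). The PBS sorted cells held 2 Lrg1 reads in all, so the size of that difference depends on the prior count of the fit and is no bound.

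**Figure D2:**
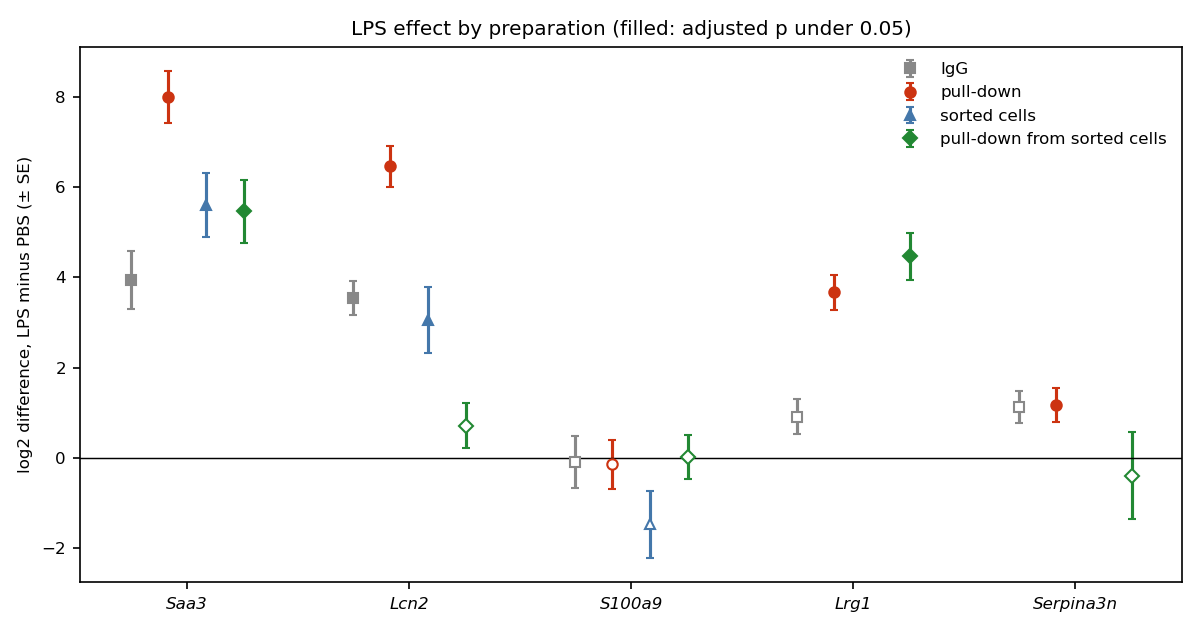
Log2 difference between LPS and PBS libraries, with its standard error, for 5 genes in 4 preparations, with filled symbols where the edgeR adjusted p was under 0.05. Steap4 in every preparation, and Lrg1 and Serpina3n in sorted cells, are left out because a group held no more than 3 reads. The pull-down gave 7.99 for Saa3 and 6.46 for Lcn2, above their other preparations, and S100a9 lay near 0 in the pull-down at -0.14.

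Within LPS mice, 4 genes were higher in the pull-down than in IgG, where 37.6% of genes tested were. The log2 difference was 4.79 ± 0.40 for Saa3 (edgeR adjusted p = 4.74e-10), 2.12 ± 0.27 for Steap4 (edgeR adjusted p = 3.56e-10) and 1.50 ± 0.28 for Lrg1 (edgeR adjusted p = 8.57e-06). Their libraries did not overlap. Lcn2 differed by 0.82 ± 0.23 (edgeR adjusted p = 0.00174), but only by 0.16 with DESeq2 size factors and 0.25 with total counts, and both lost the call. Serpina3n differed by -0.59 ± 0.29 and was not called with an adjusted p of 0.0639 by edgeR, whereas at -1.25 and -1.15 it was called lower under those scalings. These scalings move the median of all genes by -0.66 and -0.56, and the share of called genes that was higher from 51.6% to 31.9% and 34.4%.

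In the same comparison, 18 of 20 microglial and 10 of 10 border macrophage markers were higher in the pull-down, with medians of 4.83 and 4.90, and 12 of 13 astrocyte and 11 of 11 neuronal markers were lower, with medians of -1.56 and -1.40. For comparison, Saa3 stood at 4.79, Steap4 at 2.12, Lcn2 at 0.82 and Serpina3n at -0.59. In PBS mice, of all genes called, 50.8% were higher in the pull-down than in IgG, and 32.2% and 35.2% with the other scalings. Of the 6 tested genes 2 were lower there, near the share over all genes (32.0% of genes tested). These were Lcn2, at -2.10 ± 0.75 (edgeR adjusted p = 0.0144), and Lrg1, at -1.26 ± 0.54 (edgeR adjusted p = 0.0383). Both calls were lost without PBS IgG replicate 3 (-1.39 and -0.24) and without PBS pull-down replicate 2 (-1.70 and -0.96). Lrg1 also lost its call without PBS pull-down replicate 1 (-0.93).

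Sorted cells of LPS mice held less of 5 genes than the pull-down of LPS mice, in a comparison that called 43.0% of genes tested lower. The pull-down holds ribosome-bound transcripts and the sorted cells were not so selected, so RNA fraction and cell source both differ. Saa3 was lower by a log2 difference of -3.58 ± 0.37 (edgeR adjusted p = 1.72e-08), Lcn2 by -3.17 ± 0.31 (edgeR adjusted p = 2.74e-11) and Serpina3n by -3.13 ± 0.56 (edgeR adjusted p = 1.56e-06). Steap4 was lower by a ratio of 73.6 (95% interval 20.2 to 610, counting error only, edgeR adjusted p = 2.09e-16). It passed the filter on low counts through the LPS pull-down and IgG libraries, so its p is not independent of the filter. The sorted cell libraries of these 4 genes did not overlap the pull-downs. Of all genes tested 76.1% were called in either direction here, and the share without overlap was not computed. Lrg1, by contrast, differed by -0.71 ± 0.28 (edgeR adjusted p = 0.0196), its libraries overlapped, and the call was lost with total counts (-0.45) and without LPS pull-down replicate 2, or LPS sorted cells replicate 1 or 2 (-0.55, -0.58 and -0.62). S100a9 differed by -0.80 ± 0.70 and was not called (edgeR adjusted p = 0.291). In LPS mice the pull-down from sorted cells averaged 408 CPM of Saa3, 41.2 of Lcn2, 0.889 of Steap4 and 2.63 of Serpina3n. The brain pull-down averaged 2334, 156, 54.1 and 14.3 CPM. Lrg1 and S100a9 went the other way, at 104 and 16.8 CPM against 58.4 and 3.68 CPM. The difference between these pull-downs was not tested.

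The same comparison gave a median of 0.19 for the microglial markers, with 9 of 20 higher and 8 lower, and of -6.36 for the border macrophage markers, with 10 of 10 lower. With the 3 border macrophage genes that had no read in sorted cells at their bound, that median was -5.05. The medians of the 6 tested genes and of all genes were -3.15 and -0.26. Medians of endothelial (6 tested of 13), astrocyte (13) and neuronal (11) markers were -2.95 (-1.55 with 2 genes at their bound), -3.62 and -3.75. The part of these cells in the lower levels of the 5 genes was not tested. In PBS mice, 2 of the 6 tested genes were lower in sorted cells, near the share over all genes (38.7% of genes tested). Serpina3n was at least 4.81-fold lower, taking 3 reads over the sorted cell group as its floor, and Lrg1 was lower by a ratio of 5.72 with an interval of 1.38 to 50.6. The Lrg1 call was lost with total counts, and without PBS pull-down replicate 3 or PBS sorted cells replicate 2 or 3.

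**Figure D3:**
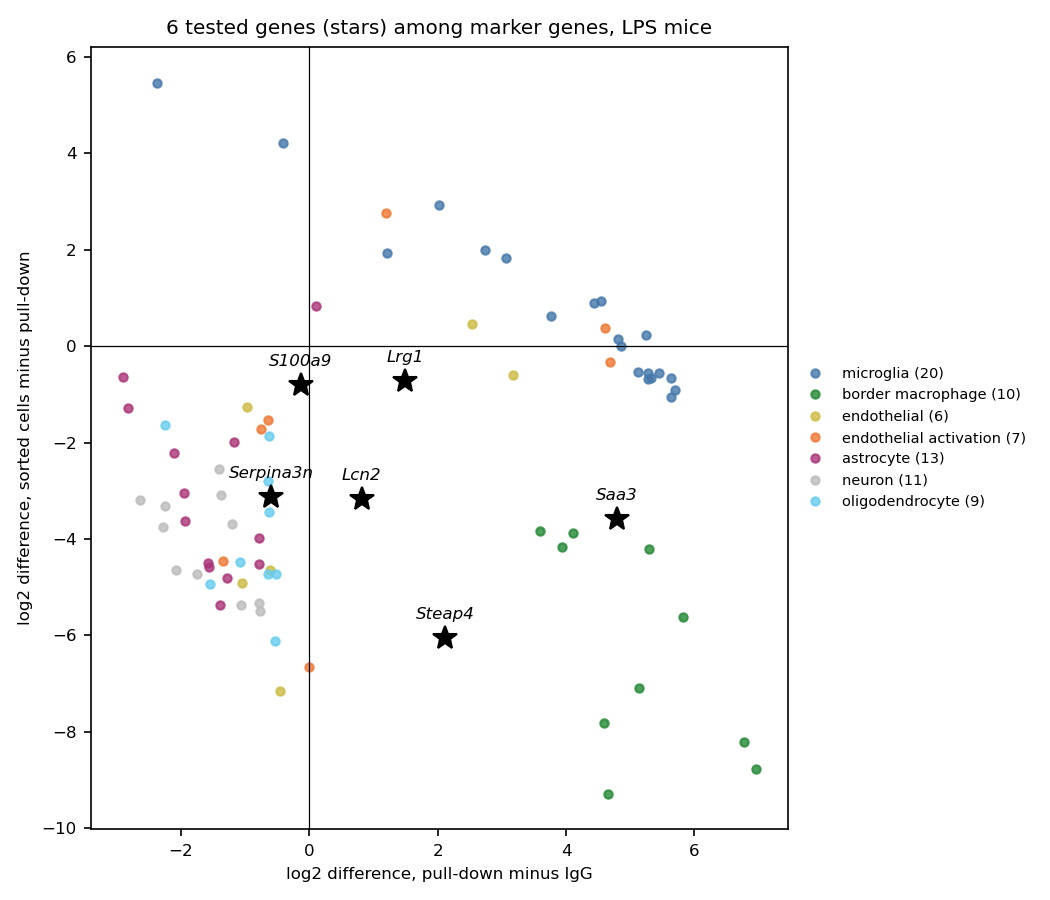
The 6 tested genes (stars) and marker genes of 7 lists (dots, number tested in brackets) in LPS mice, by the log2 difference of pull-down minus IgG (horizontal) and of sorted cells minus pull-down (vertical). Saa3, at 4.79 and -3.58, lay in the lower right quadrant, as did Steap4, Lcn2 and Lrg1, at 2.12, 0.82 and 1.50 on the horizontal axis. Of the 20 microglial markers, 9 were higher and 8 lower on the vertical axis. Vertical values of genes with few reads in sorted cells, Steap4 among them, depend on the prior count of the fit.

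Pulling tagged ribosomes from sorted cells gave higher levels than the sorted cells themselves for 3 genes in LPS mice (15.2% of genes tested called higher; of all called, 47.8% were higher, and 32.2% with total counts). Lrg1 was higher by 1.68 ± 0.30 (edgeR adjusted p = 3.2e-05) and S100a9 by 3.17 ± 0.64 (edgeR adjusted p = 8.19e-05), without overlap. S100a9 stood at 10.2, 12.2, 12.9 and 32.0 CPM in the pull-down from sorted cells and at 0, 1.94, 2.36 and 3.13 CPM in sorted cells. The PBS libraries of the pull-down from sorted cells held as much S100a9, at 9.71, 11.7 and 47.8 CPM. Saa3 was higher by 1.02 ± 0.38 (edgeR adjusted p = 0.0449), with overlap, and lost this call when any of LPS sorted cells replicates 1, 3 and 4 or LPS pull-down from sorted cells replicates 2, 3 and 4 was left out, at 0.71 to 1.09. The Saa3 call was also lost with total counts (0.87) and with only these groups in the fit (1.08). Lcn2 differed by 1.04 ± 0.44 and was not called (edgeR adjusted p = 0.0683), but it was called with a replicate block (1.19, edgeR adjusted p = 0.00496), with only these groups in the fit (1.10, edgeR adjusted p = 0.0299) and by the DESeq2 Wald test (adjusted p = 0.0141). Neuronal markers were also higher in these shallow libraries, for 9 of 11 genes with a median of 2.52, and their part was not tested.

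Genes listed as inducers of the acute-phase response rose widely, in tagged and in sorted cells. The list also holds Socs3, a feedback inhibitor. Of the 22 genes 19 were tested, and 13 rose and 1 fell in the pull-down and 6 rose in IgG. In sorted cells 14 rose and 2 fell, and 14 rose and 2 fell in the pull-down from sorted cells. Over all genes tested, 15.5%, 1.00%, 17.0% and 12.7% rose in these preparations, in that order. In the pull-down the smallest p-values were those of Socs3, the feedback inhibitor of STAT3 (log2 difference 5.92 ± 0.23, edgeR adjusted p = 5.61e-32), Cebpb (3.44 ± 0.19, adjusted p = 1.63e-23), Stat3 (2.94 ± 0.17, adjusted p = 2.86e-23) and Cebpd (2.75 ± 0.18, adjusted p = 4.39e-20). In sorted cells the same 4 genes differed by 3.56 ± 0.19, 2.90 ± 0.20, 2.90 ± 0.17 and 2.75 ± 0.19. Over the PBS groups, sorted cells held 323 Socs3 reads and the deeper pull-downs 82. The 22 genes summed to 3100 to 3230.9 CPM in PBS sorted cells and 1767.1 to 1992.5 CPM in PBS pull-downs. After LPS they summed to 9480.6 to 12105.6 CPM in sorted cells and 8027.2 to 10064.8 CPM in pull-downs, with overlap. The part of the PBS level in the smaller Socs3 difference of sorted cells was not tested. The median over the 19 genes was 2.31 in the pull-down and 2.07 in sorted cells.

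Of 41 other acute-phase genes 14 were tested, and 6 rose in the pull-down, 2 in IgG, 4 in sorted cells and 2 in the pull-down from sorted cells, with none lower. Beside them, 15.5%, 1.00%, 17.0% and 12.7% of all genes tested rose, so the last count lay near the share over all genes. The 4 with the smallest p in the pull-down were Il1rn, the interleukin 1 receptor antagonist (6.20 ± 0.35, edgeR adjusted p = 6.53e-21), Cfb, complement factor B (2.95 ± 0.33, adjusted p = 8.45e-11), Serpina3g (2.41 ± 0.41, adjusted p = 2.15e-06), a relative of Serpina3n, and C3 (1.26 ± 0.28, adjusted p = 0.000231). Il1rn also rose in sorted cells, from 2 reads over the PBS group to 371 over the LPS group, whereas Cfb differed there by 0.19 ± 0.87 and was not called, and Serpina3g held no more than 3 reads in either group. In LPS mice, 11 of the 14 were lower in sorted cells than in the pull-down, where 43.0% of genes tested were. Cfb was lower by -4.43 ± 0.43 and Serpina3g by a ratio of 23.4 (interval 7.86 to 114), on 3 reads over the sorted cells against 170 over the pull-downs.

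Among receptors and partners of the 8 proteins, 13 of 18 were tested, and in the pull-down 2 rose and 3 fell after LPS, where 1779 of all 11444 genes tested were called higher and 1258 lower, so the count that rose lay near the share over all genes. Tlr2, which binds serum amyloid A, rose by 3.47 ± 0.26 in the pull-down (edgeR adjusted p = 3.82e-14) and by 3.47 ± 0.25 in sorted cells. Tgfbr1, the TGF-beta receptor kinase, fell by 1.44 in the pull-down (SE 0.19, edgeR adjusted p = 1.14e-08). Slc22a17, described as a lipocalin 2 receptor, differed by -0.41 ± 0.16 in the pull-down, which was not called (edgeR adjusted p = 0.0586), and fell by 1.32 in sorted cells (SE 0.20, edgeR adjusted p = 2.33e-07).

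Genes of endothelial activation and of reactive astrocytes were also called in these libraries. Of 7 tested endothelial activation genes 4 rose in the pull-down, 3 in IgG, 4 in sorted cells and 2 in the pull-down from sorted cells, and of 8 tested reactive astrocyte genes 5, 3, 4 and 2 did. Over all genes tested, 15.5%, 1.00%, 17.0% and 12.7% rose there. The 10 endothelial activation genes summed to 890 to 1398 CPM in LPS pull-downs and 1055 to 1429 CPM in LPS sorted cells. LPS IgG held 142 to 221 CPM. After PBS these 3 preparations held 175 to 204, 255 to 372 and 65.6 to 76.2 CPM, so the list was lowest in IgG under both treatments. Csf3, the granulocyte colony-stimulating factor, rose from 1 read over the PBS group to 308 over the LPS group in the pull-down, and in IgG from 5 to 215, at levels that differed between pull-down and IgG of LPS mice by -0.00 ± 0.31 (edgeR adjusted p = 0.995). Gfap, the astrocyte intermediate filament, rose by 1.71 ± 0.30 in the pull-down and by 1.02 ± 0.23 in IgG. Of 13 endothelial markers, 6 had no read in sorted cells of LPS mice, Cldn5 and Egfl7 among them. The summed level of the 13 was nonetheless higher after LPS, at 404 to 495 CPM against 63.3 to 72.4 CPM in sorted cells and at 286 to 423 CPM against 140 to 153 CPM in the pull-down, whereas IgG held 118 to 146 CPM after LPS and 176 to 221 CPM after PBS. Slc2a1, a glucose transporter listed as an endothelial marker, carried most of it after LPS in sorted cells and in the pull-down. It stood there at 377 to 480 CPM and 228 to 346 CPM, against 49.3 to 54.2 CPM in IgG of LPS mice. Slc2a1 rose by 2.81 ± 0.19 in the pull-down (edgeR adjusted p = 3.79e-20) and by 3.43 ± 0.20 in sorted cells (edgeR adjusted p = 3.7e-22). Without Slc2a1, singled out after its values were seen, the other 12 summed to 14.9 to 27.2 CPM after LPS and 27.9 to 33.0 CPM after PBS in sorted cells, and to 57.3 to 76.5 CPM and 97.2 to 108 CPM in the pull-down. The part of endothelial cells and astrocytes in the levels of Lcn2, Steap4 and Serpina3n was not tested.

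The 20 neutrophil markers summed to 166 to 209 CPM in LPS pull-downs, 229 to 258 CPM in PBS pull-downs, 163 to 262 CPM in sorted cells of LPS mice and 12.0 to 50.1 CPM in their IgG. Of the 20 genes, 3 were tested, Csf3r, Mmp9 and Mcemp1, and of these 1 rose and 1 fell after LPS in the pull-down and in sorted cells. All 3 were higher in the pull-down than in IgG of LPS mice, with a median log2 difference of 4.72. Without Csf3r and Mmp9, the other 18 summed to 22 to 75 reads per LPS pull-down against 7 to 11 per PBS pull-down, and to 7 to 29 reads in sorted cells of LPS mice against 0 to 7. Mcemp1, a mast cell and myeloid membrane protein, was the gene that rose, by 4.22 ± 0.55 in the pull-down (edgeR adjusted p = 4.53e-09) and in sorted cells from 1 read over the PBS group to 30 over the LPS group (edgeR adjusted p = 0.000106). It alone held 136 of the 215 reads of the 18 genes over the LPS pull-downs and 4 of the 27 over the PBS pull-downs. In sorted cells it held 30 of 76 after LPS and 1 of 11 after PBS. These reads are not scaled for depth, which was 1131402 to 3513317 counted reads per LPS pull-down and 1425412 to 1636479 per PBS pull-down. Ly6g, Elane, Mpo, Ctsg, Stfa2, Stfa2l1 and Padi4 had no read in the 4 LPS pull-downs. Of the monocyte markers, 7 of 12 were tested, and 2 rose in the pull-down (15.5% of genes tested) and 4 in sorted cells (17.0%).

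Across the 28 libraries of the LPS experiment, the genes closest in level to each of the 6, by Pearson correlation of log2 CPM, differed. The libraries share preparations and treatments, so these coefficients describe the groups and carry no p-value. Saa3 was closest to Marcksl1 (r = 0.93), Sdc4 (0.92) and Isg15 (0.91), and Lrg1 to Cdkn1a (0.96), Gadd45g (0.94) and Scamp1 (0.92). Lcn2 was closest to Cxcl1 (0.83), Csf3 (0.79) and Rsad2 (0.79), and Steap4 to Csf3 (0.87), Ifitm2 (0.84) and Serpina3g (0.80). Serpina3n was closest to Usp5 (0.92), Ankrd9 (0.91) and Gfap (0.91), and S100a9, at few reads, to Rbbp4 (0.79), Cgrrf1 (0.78) and Commd5 (0.73). Among the 6, the highest coefficients were 0.87 between Saa3 and Lrg1, 0.79 between Saa3 and Lcn2 and 0.79 between Lcn2 and Steap4, and that of S100a9 with Saa3 was -0.03.

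In the digest experiment, without LPS, 1 library sorted after the digest and 1 sorted without it stood apart from the others of their groups. The calprotectin genes, Lcn2 and Chil3 were all high in both. S100a9 had 88 reads in digest replicate 1 and 152 in no-digest replicate 4, against 0 to 8 reads in the other 6 sorted libraries and 1 to 4 in the pull-down and IgG libraries. S100a8 had 38 and 55 reads there against 0 to 8, Lcn2 had 20 and 57 against 1 to 8, and Chil3 had 13 and 18 against 0 to 2 in the other sorted libraries. The neutrophil granule genes Ngp (61 and 179 reads), Camp (28 and 62) and Ltf (6 and 28) were high in the same 2 libraries, where no other library of the experiment held more than 5, 2 and 2. Of the 20 neutrophil markers, 11 had no read in the group sorted after the digest and 10 in the group sorted without it. Ly6g, Elane, Mpo, Prtn3, Ctsg, Retnlg, Mmp8, Stfa2 and Stfa2l1 had none in either. Without Csf3r and Mmp9, the other 18 markers summed to at most 103 and 275 reads per library of these groups. Saa3, by contrast, had 0 and 2 reads in these 2 libraries and 0 to 20 over all libraries of the experiment.

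Saa3 was the only one of the 8 that passed the filter there, and it was not called in any of 4 comparisons. Without the filter it was called higher in the pull-down than in IgG (1.57, edgeR adjusted p = 0.0168). It differed by 1.51 ± 0.93 between pull-down and IgG (edgeR adjusted p = 0.157; 74.5% of genes tested were called in either direction), by -0.46 ± 0.82 and -0.48 ± 0.81 between cells sorted after or without the digest and the pull-down (edgeR adjusted p = 0.628 and 0.606; 72.8% called in each) and by 0.02 ± 0.85 between digest and no digest (edgeR adjusted p = 1; 0.139% called). Without the 2 libraries, Saa3 was not called in the 3 comparisons that include sorted cells either. Lcn2 had no read in the 3 pull-downs, and Steap4 held 2 reads in all 15 libraries.

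**Figure D4:**
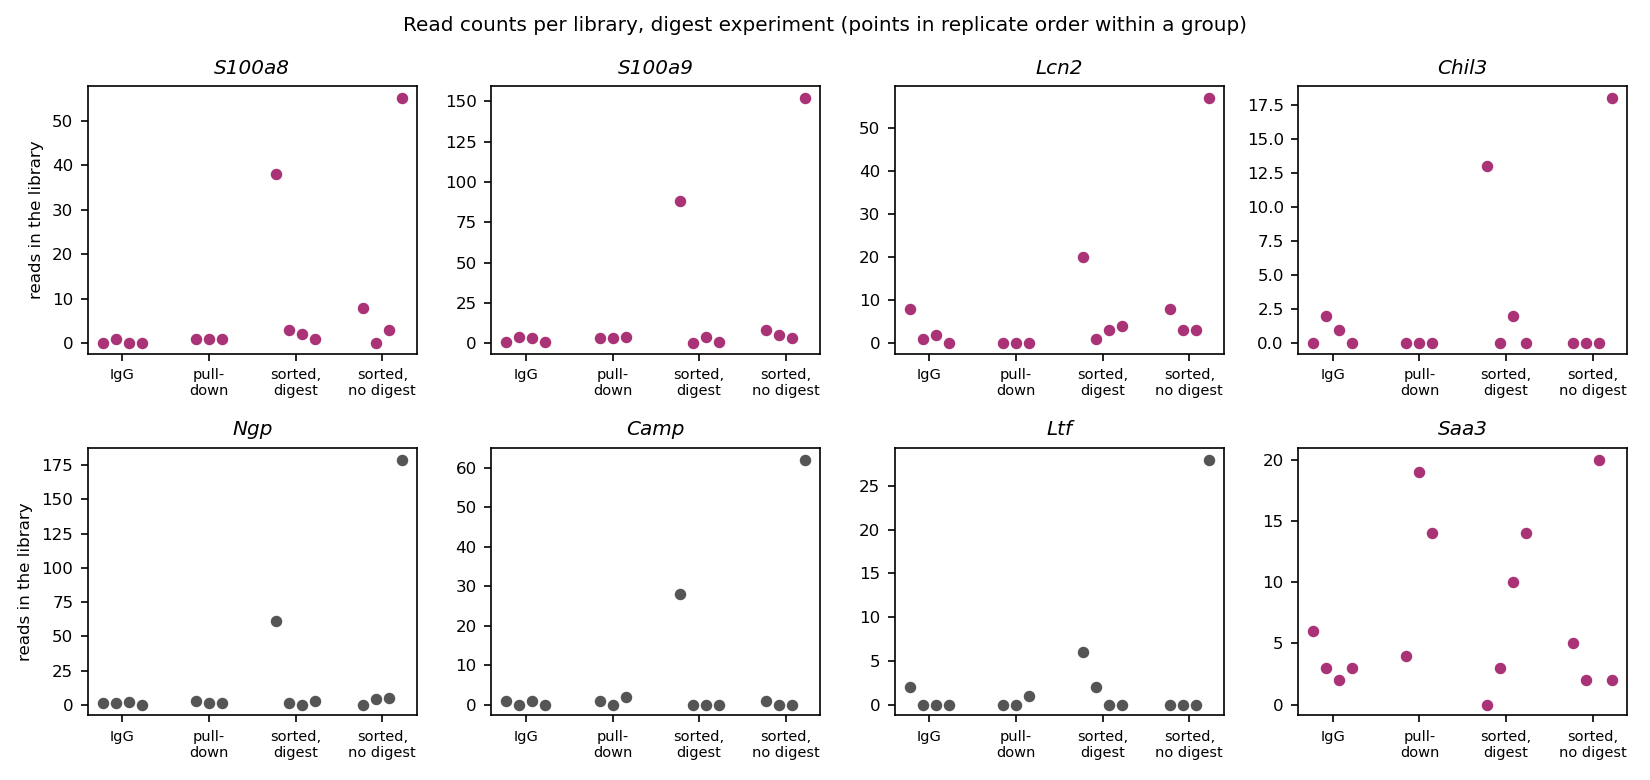
Reads per library of the digest experiment for 5 of the genes (purple) and for the neutrophil granule genes Ngp, Camp and Ltf (grey), each panel on its own scale. Digest replicate 1 and no-digest replicate 4 held 88 and 152 reads of S100a9 and 61 and 179 reads of Ngp, and 0 and 2 reads of Saa3.

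In the driver experiment, also without LPS, Serpina3n was lower among the tagged transcripts than in whole homogenate. It stood at 33.3, 34.1 and 57.8 CPM in the input of mice with tamoxifen, and at 1.08, 2.96 and 5.11 CPM in their pull-down. The groups did not overlap, and the log2 difference was -3.77 ± 0.46 (edgeR adjusted p = 6.79e-09). It was the 1 gene of the 8, with 5 tested, that was lower than input, where 35.5% of genes tested were. Against IgG, 3 of the 5 tested genes were lower in this pull-down, where 35.3% of all genes tested were. These were Serpina3n, by -1.39 ± 0.59 (edgeR adjusted p = 0.0392), Lrg1, by -1.55 ± 0.61 (edgeR adjusted p = 0.0238), and S100a9, by a ratio of 8.97 (interval 2.26 to 77.9, edgeR adjusted p = 0.00834). Lrg1 stood at 1.08, 2.55 and 5.91 CPM in the pull-down and 7.23, 8.98 and 10.5 CPM in IgG, and S100a9 at 2, 0 and 0 reads and 14, 2 and 11 reads. Only S100a9 overlapped between these groups. All 3 calls were lost without pull-down replicate 3 (-0.92 for Serpina3n and -1.09 for Lrg1). The Serpina3n call was also lost without IgG replicate 3, without pull-down replicate 2 and with DESeq2 size factors (-1.04, -1.39 and -1.32), and the Lrg1 call without IgG replicate 1 or pull-down replicate 1 (-1.41 and -1.46). Microglial markers summed to 81087 to 103591 CPM in this pull-down and 1079 to 1274 CPM in the input. Saa3 stood at 5.41, 14.0 and 22.2 CPM in this pull-down and 0.887, 1.39 and 2.22 CPM in the input, without overlap, but its log2 difference of 3.15 ± 2.24 was not called (edgeR adjusted p = 0.23). Without the filter on low counts it was called, at 3.18 with an edgeR adjusted p of 1.24e-07. In mice without tamoxifen Serpina3n stood at 36.6 and 42.9 CPM in the input, and the 2 pull-downs at 4.28 and 20.4 CPM, on 1 and 4 reads. With total counts the share of called genes that was higher fell from 44.7% to 28.8% in the comparison with input and from 46.6% to 30.4% in that with IgG.

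With the constitutive Cx3cr1 driver, the pull-down held 3275 to 7913 CPM of the microglial markers and 12931 to 16824 CPM of the neuronal markers. Serpina3n was lower there than in input, by -0.93 ± 0.30 (edgeR adjusted p = 0.0153; 16.8% of genes tested were called lower), and S100a9 higher, by 1.83 ± 0.64 (edgeR adjusted p = 0.0241; 18.1% called higher). Each was 1 of 5 tested genes, so both counts lay near the share over all genes. The share of called genes that was higher was 51.8%, and 28.1% with total counts. S100a9 held 22, 5 and 8 reads in the pull-down and 2, 3 and 8 in the input, and lost its call without any 1 of pull-down replicate 1 and input replicates 1 and 2 (1.19, 1.51 and 1.50), and with total counts (1.58). Serpina3n lost its call without pull-down replicate 2 or 3 (-0.89 and -0.87). Saa3 was uneven between mice of this driver, with 144 reads in input replicate 1 against 8 and 1 in the others, and 35 in IgG replicate 2 against 0 and 1. Lcn2 had 17 reads in the same input library and none in the other 2.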

How the data were processed

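The 67 libraries of 3 experiments were deposited by the authors as raw counts of reads over exons per gene, whole numbers in 1 table per experiment. The submitters' processing notes name bcl2fastq, HISAT 0.1.5, HOMER and build mm9. The annotation, the strand setting and the treatment of duplicates are not given in the sources used here. Each table was fitted whole with edgeR 4.0.16 in R 4.3.3: low genes were dropped with filterByExpr (minimum count 10), libraries were scaled by TMM, and contrasts of group means were tested with the robust quasi-likelihood F test, with Benjamini-Hochberg adjustment over all genes tested and a threshold of 0.05. Standard errors are the log2 difference divided by the square root of F. CPM use TMM-scaled totals. Ratios with 1 to 3 reads in a group carry exact 95% intervals for counting error only, and a fold against 0 reads is a bound at 3 reads over the group. Intervals and floors cover counting error only. The design text calls biological repeats individual mice. No other samples' columns are in the tables (0 columns left out). Replicate libraries differed by more than counting noise, so all count separately.

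All 8 genes were named. Of each other list, up to 4 genes with the smallest p in a comparison were named, called ones first, with a few further list members chosen after their values were seen (Tgfbr1, Slc22a17, Csf3, Gfap, Cldn5, Egfl7, and single markers given at 0 reads). Ngp, Camp and Ltf were picked from the neutrophil list without a test. Closest genes were the 3 with the highest correlation among tested, named genes. The members and lists were chosen with earlier results of these data known. The fit was tested on simulated data. Alternatives were DESeq2 1.42.0 size factors and its Wald test, total counts, no filter, only the groups compared, replicate blocks and each library left out.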

Additional observations from a re-analysis of the deposited data

Results flagged for a closer look

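In a single library of a group of 4, a gene stood far above the other 3 in 15 of 54 groups examined. Chance gives about 1 in 20 for continuous values, a rate that does not hold for counts in which the other libraries are at 0, as in 7 of the 15. The 2 sorted libraries of the digest experiment that stood apart account for 9 of them. In digest replicate 1 these were S100a9 at 93.7 CPM, S100a8 at 40.5 CPM, Lcn2 at 21.3 CPM and Chil3 at 13.8 CPM. In no-digest replicate 4 they were S100a9 at 128 CPM, Lcn2 at 47.8 CPM, S100a8 at 46.1 CPM, Chil3 at 15.1 CPM and Lrg1, on 3 reads, at 2.52 CPM. Ngp, Camp and Ltf were raised in both libraries, and their part was not tested.

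In the pull-down from sorted cells of LPS mice, replicate 4 held the most S100a9, at 32.0 CPM, and the only reads of Steap4, 2 of them, at 3.56 CPM. The other 4 rest on 1 read each, which is S100a8 in digest experiment IgG replicate 2 (0.592 CPM), Steap4 in IgG replicate 4 (1.47 CPM), Serpina3n in digest replicate 2 (0.671 CPM) and Serpina3n in no-digest replicate 3 (0.769 CPM).

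The LPS effect differed between preparations, by a test of the difference itself, for Saa3 (larger by a log2 difference of 4.05 in the pull-down than in IgG), Lcn2 (2.92) and Lrg1 (2.75), and for Lrg1 between sorted cells and IgG (4.39). The calls of pull-down against IgG for Saa3, Lcn2 and Lrg1 were lost without PBS IgG replicate 3 (4.15, 2.21 and 1.73; edgeR adjusted p = 0.0786, 0.142 and 0.109). The Lrg1 value between sorted cells and IgG rests on 2 reads in the PBS sorted cells.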

How the results depend on the processing

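No called log2 difference of the 8 genes changed direction under an alternative. The share of called genes that was higher went from a majority to a minority with other scalings for the LPS effect in the pull-down (58.6% to 45.0% and 40.6%), pull-down minus IgG (65.3% to 45.7% and 47.6%) and pull-down against IgG in LPS mice (51.6% to 31.9% and 34.4%). Without the filter on low counts, the number of the 8 genes called was 1 in place of 0 for the LPS effect of sorted cells minus pull-down and for 3 digest comparisons (pull-down against IgG, and both sorted groups against pull-down). It was 2 in place of 1 for sorted cells minus IgG, 5 in place of 3 for pull-down from sorted cells against sorted cells, 3 in place of 1 for the inducible pull-down against input, and 5 in place of 3 against IgG. With only the groups compared in the fit, it was 0 in place of 2 for pull-down against IgG and for sorted cells against pull-down in PBS mice, 0 in place of 3 for the inducible pull-down against IgG, and 1 in place of 2 for the constitutive pull-down. With total counts it was 1 in place of 2 for sorted cells against pull-down in PBS mice and for the constitutive pull-down, and 2 in place of 1 for the inducible pull-down against input. The DESeq2 Wald test called 1 in place of 0 for sorted cells minus pull-down. With 1 library left out at a time, the number called ranged from 0 to 3 for the LPS effect of pull-down minus IgG, from 0 to 2 for pull-down against IgG and from 1 to 2 for sorted cells against pull-down in PBS mice, from 1 to 2 for the inducible pull-down against input, from 0 to 3 against IgG, and from 1 to 2 for the constitutive pull-down. Without both replicate 1 libraries of the constitutive driver, an alternative chosen after seeing the data, it was 1.

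With a replicate block the number of the 8 genes called was equal in 18 of 19 comparisons and 4 in place of 3 for pull-down from sorted cells against sorted cells (Lcn2 added, 1.19). A replicate block by the number in the titles also gave 4 there (Lcn2, 1.17), and 1 in place of 0 for sorted cells minus pull-down (Lcn2, -3.48). The replicate block joined PBS and LPS libraries of unlike title numbers, and driver libraries of unlike genotype. Its equal counts therefore do not show whether pairing matters. Libraries of the same number correlated above 0.1 in 6 of 42, 2 of 21 and 5 of 87 pairs of the LPS, digest and driver experiments. The driver pairs include libraries of unlike genotype or tamoxifen treatment, which cannot share a mouse and so cannot bear on pairing. Pull-down and IgG libraries of one number in the LPS experiment correlated above 0 in 6 of 7 pairs and above 0.1 in 3. The labels do not say whether a number marks an animal, so pairing was not established.

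Over all genes, calls for the LPS effect in IgG were 132, and 213 without the filter, 84 with only the groups compared and 86 without LPS IgG replicate 2. For sorted cells minus pull-down they were 367, 552 with only the groups compared and 196 without LPS sorted cells replicate 3. Low read numbers limit S100a8, S100a9, Chil3 and, in sorted cells, Steap4 and Serpina3n.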
